A study of Homo sapiens with 148 samples.

Results

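The replication-dependent histone genes, which lie in clusters and encode the bulk of the H1, H2A, H2B, H3 and H4 proteins, were examined across 6 stages of pancreatic differentiation of H9 cells, an established human embryonic stem cell line. Members were the rows of the expression table with a name beginning in HIST1H, HIST2H, HIST3H or HIST4H, the older symbols of these genes, and 11 names ending in PS and a digit were left out. Of 49085 gene names in the table, 76 met this rule. They comprised 6 H1, 17 H2A, 23 H2B, 15 H3 and 15 H4 names, and by the cluster given in the name 55 belonged to HIST1, 16 to HIST2, 4 to HIST3 and 1 to HIST4. By the current annotation 70 of the 76 are protein-coding, and the other 6 (HIST2H2BA, HIST2H2BB, HIST2H2BC, HIST2H2BD, HIST2H3DP1 and HIST3H2BA) are pseudogenes that the rule keeps. The stages were undifferentiated hESCs, definitive endoderm (DE, day 4, after activin A and CHIR99021, a GSK3 inhibitor), primitive gut tube (PGT, day 7, after KGF), pancreatic progenitors (PP, day 14, after KGF, Sant1 and retinoic acid), organoids of β-like cells made from stem cells (labelled SC-β, day 35, after a γ-secretase inhibitor XXI, betacellulin, Alk5i II and T3) and a stage labelled PH, which neither the labels nor the methods define. The agents named are not the full list in the methods, and Sant1 and retinoic acid were also given between PP and SC-β. All groups were wild-type H9 cells, and those of DE, PGT, PP and SC-β were grown as spheroids in suspension. Undifferentiated H9 cells were kept on Geltrex-coated cultureware, and whether the hESC RNA came from these or from spheroids is not stated. If it came from the coated cultureware, culture format and stage cannot be told apart in comparisons with hESCs. How PH was grown is not stated. RNA was sequenced from 2 libraries per stage, but each stage is given as 1 mean value in TPM (transcripts per fixed total, corrected for length), so no level here has an error, no difference could be tested against replicate spread, and the number of reads behind each value is not in the table (the study states only a minimum number of read pairs per library). A difference of 2-fold or more on the log2(TPM + 1) scale is counted below as a description, beside the share of all gene names that reached the same fold.

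A dividing cell has to package a new genome in S phase, and the replication-dependent histone genes supply the protein for it. Their mRNAs have no introns and, in most cases, no poly(A) tail: they end in a conserved stem-loop that the stem-loop binding protein SLBP holds during processing, export and translation and that directs rapid decay when DNA synthesis stops. Histone variants such as H3.3 (H3F3A and H3F3B), H2A.Z (H2AFZ) and linker histone H1.0 (H1F0) are encoded by separate genes with polyadenylated mRNAs and are made outside S phase as well. Ribosomal RNA was removed before the libraries were made, but the labels name a kit for stranded mRNA, so whether poly(A) RNA was also selected is not clear. If it was, the levels of members without a poly(A) tail would depend on how far they were captured, and this was not tested. Since the RNA came from bulk cultures, a smaller share of cells in S phase and less histone mRNA per cell cannot be told apart.

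The stem-loop is shown first because it is the feature that sets these mRNAs apart from other mRNAs. It was searched for by its consensus in the 150 bases after the stop codon, and all 70 members with an annotated stop codon held exactly 1 match, beginning 22 to 67 bases after the stop codon with a median of 35. The 16 bases took 10 forms, printed in lower case for the 2 arms of 6 bases that pair and in capitals for the 4 bases of the loop. The form of HIST1H1B, on the minus strand of hg38 at chr6:27866797-27866812, was shared by 40 members of the H1, H2A, H2B and H3 classes. The form of HIST1H4E, on the plus strand at chr6:26205001-26205016, was held by 10 of the 15 H4 members, and all 15 had its arms. HIST1H2BK, on the minus strand at chr6:27146366-27146381, stands for 10 members of its form in the other classes. HIST1H4I, on the plus strand at chr6:27139654-27139669, stands for 4 H4 members. HIST1H4L, on the minus strand at chr6:27873153-27873168, was the only H4 member with its loop. HIST1H2AG, on the plus strand at chr6:27133515-27133530, was the only member to join the 5′ arm of the first form to the 3′ arm of the H4 form.
HIST1H1B: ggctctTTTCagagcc
HIST1H4E: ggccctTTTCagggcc
HIST1H2BK: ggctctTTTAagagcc
HIST1H4I: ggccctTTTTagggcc
HIST1H4L: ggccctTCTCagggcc
HIST1H2AG: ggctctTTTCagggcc

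The promoters of the member with the highest mean level in each class are shown to compare their elements. Each line gives the 150 bases before the RefSeq start (build GRCh38.p14), in the direction of transcription. Capitals mark ATTTGCAT (the octamer bound by POU2F1), TATAAA (the box that TBP binds) and CCAAT (the letters bound by NF-Y), each on either strand. HIST1H1B lies on the minus strand (chr6:27867589-27867738), HIST1H2AE on the plus strand (chr6:26216771-26216920), HIST1H2BK on the minus strand (chr6:27146856-27147005), HIST1H3B on the minus strand (chr6:26032100-26032249) and HIST1H4E on the plus strand (chr6:26204460-26204609).
HIST1H1B: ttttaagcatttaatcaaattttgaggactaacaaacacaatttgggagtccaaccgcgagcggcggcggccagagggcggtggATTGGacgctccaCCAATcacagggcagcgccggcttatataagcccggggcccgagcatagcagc
HIST1H2AE: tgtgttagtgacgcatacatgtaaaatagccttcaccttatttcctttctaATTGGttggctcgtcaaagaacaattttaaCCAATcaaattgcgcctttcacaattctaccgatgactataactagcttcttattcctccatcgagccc
HIST1H2BK: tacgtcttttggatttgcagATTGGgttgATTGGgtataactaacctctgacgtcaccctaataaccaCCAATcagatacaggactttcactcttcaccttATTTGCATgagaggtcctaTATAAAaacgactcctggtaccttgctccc
HIST1H3B: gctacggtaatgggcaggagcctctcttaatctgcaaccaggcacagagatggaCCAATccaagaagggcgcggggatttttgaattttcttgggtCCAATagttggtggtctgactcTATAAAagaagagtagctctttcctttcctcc
HIST1H4E: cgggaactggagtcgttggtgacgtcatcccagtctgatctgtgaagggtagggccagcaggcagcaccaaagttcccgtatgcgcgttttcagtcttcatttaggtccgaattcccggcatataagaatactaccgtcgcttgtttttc

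RefSeq promoters, from 250 bases before to 50 bases after the start, were found for 65 members and compared with all 35116. Where a member had 2 listed starts, as 4 did, the start nearest its annotated transcript was used. ATTTGCAT was in 1.77% of all promoters, and in 11 of 16 H2A and 14 of 18 H2B promoters, and in none of the 6 H1, 12 H3 or 13 H4 promoters. CCAAT was in 34.6% of all promoters and in every H1, H2A, H2B and H3 promoter found, but in 3 of 13 H4 promoters. TATAAA was in 11.5% of all promoters and in 43 of the 65. Neighbouring genes on opposite strands have windows that overlap, so 1 match can be counted for both: the 25 members with ATTTGCAT held it at 17 places in the genome, and for 16 of them every match was also in another member's window. HIST1H2AE holds ATTTGCAT and TATAAA in its window, outside the bases printed. A match is a match of letters only, and the 3 motifs do not overlap in their letters.

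The stage labels were compared with marker genes before the members were read. POU5F1, the pluripotency factor, was at 1449 TPM in hESCs, 417 in DE and at most 25.4 elsewhere, and SOX17, an endoderm factor, was highest in DE at 96.1 TPM. PDX1, the pancreatic progenitor factor, reached only 3.17 TPM in PP, and in SC-β glucagon (GCG) was at 2793 TPM against 298 for insulin (INS). In PH, INS was at 6.86 TPM and FOXA2 at 1.17 TPM, while 5 of 6 neural progenitor markers were 2-fold or more above hESCs, HES5 being at 110 TPM. Of all names 12.1% were higher in PH by that fold, and of those with a mean of 1 TPM or more 23.4%. The 6 mesenchymal markers summed to 924 TPM in PH and 1674 in SC-β, against 31.7 to 164 in the other stages. A few short RNAs held much of every total: RN7SK alone went from 3.23% of all TPM in hESCs to 19.7% in PH, and 5 of them (RN7SK, RN7SL1, RN7SL2, RMRP and RPPH1) together from 23.7% in DE to 39.8% in PH. Since TPM is a share of a fixed total, a higher share of these RNAs lowers the TPM of all other genes, and the part of the markers and of the short RNAs in the values below was not tested.

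The 76 members were abundant at every stage. From hESCs through DE, PGT, PP and PH to SC-β, the order used for every run of 6 values below, their TPM summed to 27861, 27088, 18650.2, 37502, 15669 and 25307. These sums are 2.79%, 2.71%, 1.87%, 3.75%, 1.57% and 2.53% of the total. PP was thus the highest stage and PH the lowest, with PGT next to it, whereas PGT was the lowest when the stages were rescaled by their median ratio or when the 100 most abundant genes were left out of the totals. The log2 ratio of the sum to hESCs was -0.04 for DE, -0.58 for PGT, 0.43 for PP, -0.83 for PH and -0.14 for SC-β. By mean over the stages 48 members were at 100 TPM or more, 23 between 1 and 100 TPM and 5 below 1 TPM, and 13 were among the 100 most abundant names. The 10 most abundant members held 38.8% of the summed mean, and 20 held 62.8%.

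**Figure D1:**
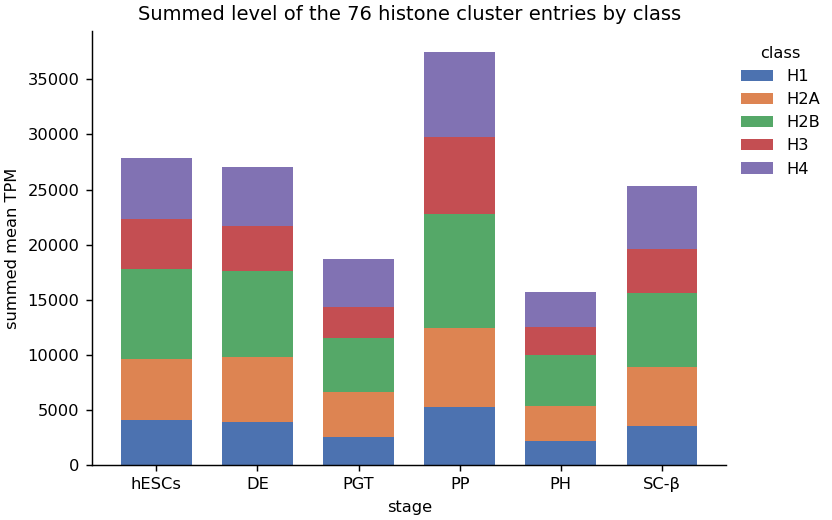
Summed mean TPM of the members at each of the 6 stages (bars from 0), with the H1, H2A, H2B, H3 and H4 classes stacked; each bar is the authors' mean and has no error. The bar is tallest in PP at 37502 TPM and shortest in PH at 15669 TPM (PGT under the other scalings), and the classes keep similar shares.

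Each class sum was highest in PP and had its 2 lowest values in PGT and PH. H2B held the largest share at every stage, between 25.9% and 29.4% of the summed members, and H1 the smallest, between 13.6% and 14.6%. The H1 sum, for the linker histones, was 4063, 3901, 2539.9, 5275, 2127 and 3523 TPM. The H2A sum was 5578, 5881, 4109, 7150.3, 3203 and 5368 TPM. The H2B sum was 8132, 7816, 4838, 10328, 4599.8 and 6705 TPM. H2A and H2B enter the nucleosome as dimers, and H3 and H4 form the tetramer at its centre. The H3 sum was 4537, 4068, 2842, 7050.1, 2601 and 4005 TPM. The H4 sum was 5551, 5423, 4321, 7698, 3139 and 5706 TPM. The ratio of summed H4 to summed H3 was lowest in PP at 1.09 and highest in PGT at 1.52, and that of H2B to H2A lay between 1.18 in PGT and 1.46 in hESCs. In PP the H3 sum includes HIST1H3J at 1304 TPM and the H2A sum HIST1H2AM at 46.6 TPM. Their separate levels are uncertain, as described below, and so are the ratios that rest on them.

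Among the H1 genes, which encode the linker histone that binds DNA between nucleosomes, 3 were abundant at every stage. HIST1H1B was at 1277, 1684, 842, 1866, 639.6 and 1310.6 TPM. HIST1H1C was at 1048, 1039.8, 700.04, 1502, 619 and 884 TPM. HIST1H1E was at 845, 874, 726, 1297, 626 and 939 TPM. Each of these was highest in PP. HIST1H1D, at 754 TPM in hESCs, was instead lower at every later stage, at 216, 235, 539, 234 and 337 TPM. HIST1H1A, at 132 TPM in hESCs, was at 86.5, 36.9, 66.8, 8.30 and 50.8 TPM. So 2 of the H1 genes were at their highest in undifferentiated cells, together with the testis-type HIST1H1T, while the 3 most abundant were highest in PP.

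Of the H2A genes, HIST1H2AE had the highest mean, with 854, 874, 616, 1263, 814 and 885 TPM. HIST1H2AH was at 653, 870.1, 540.5, 1031, 297 and 617 TPM. HIST1H2AD was at 572, 762, 556, 949.96, 345 and 593 TPM. Both encode H2A proteins of the main, canonical kind. HIST1H2AJ was at 628, 849, 422, 928, 219 and 677 TPM. All 4 were highest in PP, and HIST1H2AE stood apart from the other 3 in PH, where it held 814 TPM and was close to its hESC level. HIST1H2AK, at a mean of 0.0619 TPM, and HIST1H2AA were below 1 TPM at every stage.

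The H2B genes were led by HIST1H2BK, at 836, 1045, 713, 1388, 611 and 975 TPM. HIST1H2BD was at 674, 709, 603, 1168, 552 and 844 TPM. HIST1H2BH was at 887, 779.8, 651, 1065, 314 and 654 TPM, with a smaller level in PH than the 2 before it. HIST1H2BI was at 798, 669, 386, 858, 223 and 549 TPM. The first pair differed less between hESCs and PH than the second: the log2 ratio of PH to hESCs was -0.45 for HIST1H2BK and -0.29 for HIST1H2BD, against -1.50 for HIST1H2BH and -1.84 for HIST1H2BI.

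In the H3 class, HIST1H3B was at 896, 892, 634, 1526, 657 and 991 TPM. HIST1H3E was at 785, 629, 607, 985, 376 and 631 TPM. HIST1H3F was at 641, 511, 369.99, 910.4, 484 and 495 TPM. Their highest stage was PP in each case. HIST1H3H was at 209, 147, 113, 269, 141 and 137 TPM. HIST1H3J is described with its neighbour below. HIST1H3C, in contrast, was between 0.122 and 8.60 TPM. In the H4 class, whose genes with few exceptions encode the same protein, HIST1H4E had the highest mean of all members, with 1300.1, 1619, 1465, 1929, 1087 and 1569 TPM. HIST1H4D was at 1126, 1124, 701, 1552, 527 and 991 TPM. HIST1H4C was at 862, 551, 543, 1015, 412 and 726 TPM. All of these were highest in PP and lowest in PH. HIST1H4H was at 593, 480.1, 400.5, 798, 262 and 563 TPM. HIST1H4E had the smallest fold between its highest and lowest stage of these 4, though not the smallest difference in TPM. In PGT it was above hESCs, where the other 3 were below.

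**Figure D2:**
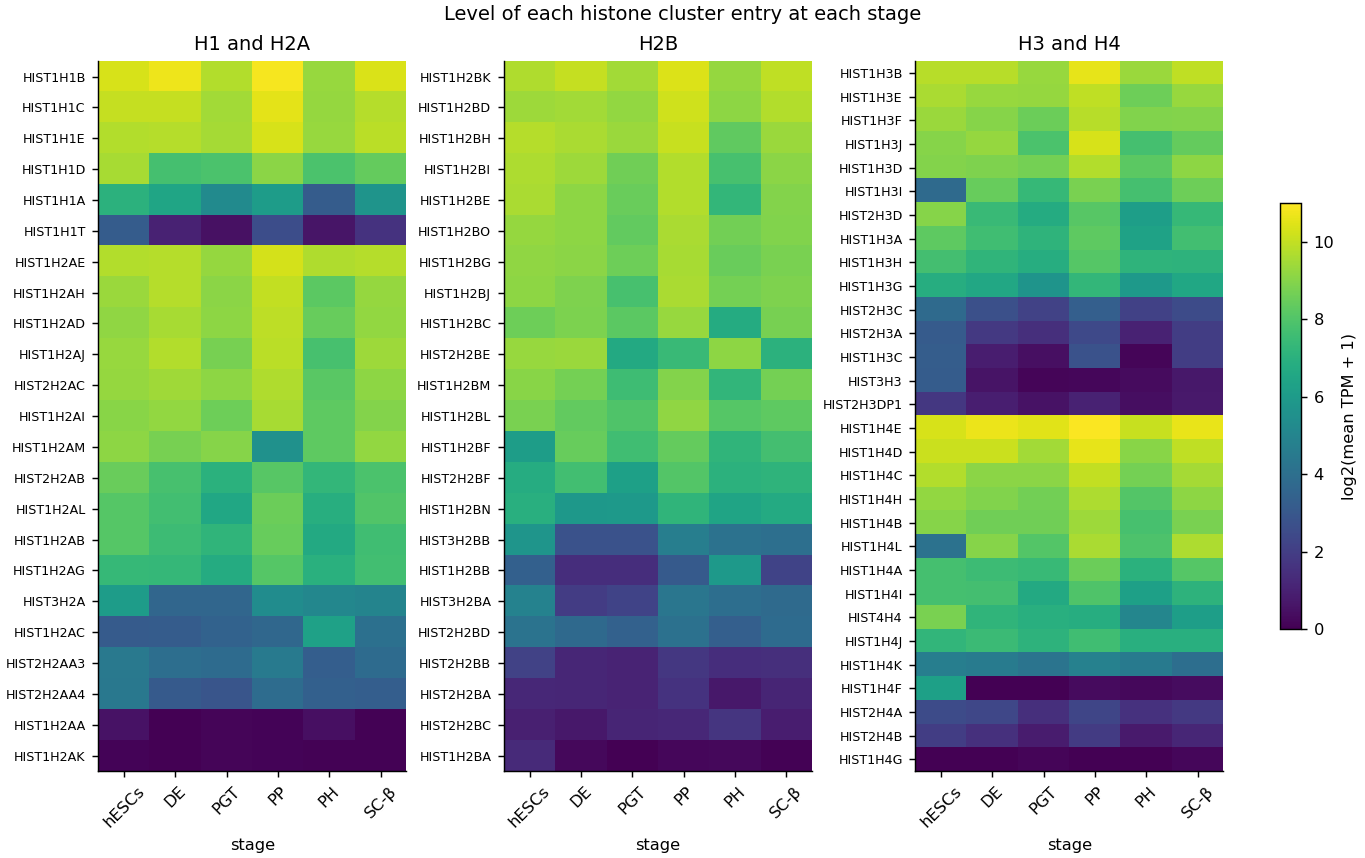
Level of each of the 76 members as log2(mean TPM + 1) (colour), with stages in columns and members in rows, ordered within each class by mean level. The PP column is the brightest for most rows, and single cells that break their row, such as HIST1H2AM in PP and HIST1H4L in hESCs, stand out.

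Counted member by member, 44 of the 76 had their highest level in PP and 23 in hESCs, and 40 had their lowest level in PH and 20 in PGT. Among members the levels ranked alike at all stages: over the 15 pairs of stages the Pearson correlation of log2(TPM + 1) across the 76 members was 0.889 to 0.991, as a description of values from the same 6 columns.

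From hESCs to DE, 3 members were 2-fold or more higher and 16 lower. Of all names 12.9% were higher and 2.55% lower by that fold, and of the 21679 names with a mean of 1 TPM or more, 25.8% and 4.86%. The members' median log2 ratio was -0.28, while that of the names with a mean of 1 TPM or more was 0.50. From hESCs to PGT, 3 members were higher and 32 lower, against 10.1% and 4.34% of all names and 21.3% and 8.47% of those with a mean of 1 TPM or more. The medians were -0.72 for the members and 0.36 for those names.

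In PP the median of the members was level with that of other genes, but the share of members that were higher was not. Against hESCs 5 (6.58%) were 2-fold or more higher and 7 (9.21%) lower. Of all names 7.98% were higher and 4.06% lower, and of names with a mean of 1 TPM or more 17.2% and 7.75%. The medians of the members and of the names with a mean of 1 TPM or more were both 0.30. In PH 5 members were higher and 35 lower than in hESCs, next to 12.1% and 8.35% of all names and 23.4% and 17.1% of those at 1 TPM or more, with medians of -0.95 and 0.18. In SC-β 3 were higher and 18 lower, next to 22.2% and 3.7% of all names and 40% and 7.05% of those at 1 TPM or more, with medians of -0.33 and 0.72. All 5 of these comparisons share the hESC column.

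The step from PGT to PP moved the most members upward. From DE to PGT no member was 2-fold or more higher and 10 were lower (2.3% and 4.92% of all names, 4.54% and 8.92% of those at 1 TPM or more), with a median log2 ratio of -0.39. From PGT to PP 39 members were higher and 1, HIST1H2AM, was lower, against 2.74% and 3.25% of all names and 5.68% and 6.43% of those at 1 TPM or more, and the members' median was 1.04 where that of all names at 1 TPM or more was -0.08. Those 39 included 4 of 6 H1, 7 of 17 H2A, 12 of 23 H2B, 11 of 15 H3 and 5 of 15 H4 members.

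From PP to SC-β the sum was lower by -0.57 on the log2 scale, spread over the members: 1 was 2-fold or more higher and 2 lower (10.6% and 0.939% of all names, 18% and 1.89% of those at 1 TPM or more), with a median of -0.59 where that of the names at 1 TPM or more was 0.36. The 2 lower became 17 after median-ratio rescaling, 18 when the 100 most abundant genes were left out of the totals, and 32 relative to the median of the names at 1 TPM or more, which was chosen after seeing the data. The share over all names was not computed under these settings. From PP to PH 4 were higher and 45 lower (5.14% and 5.73% of all names, 8.81% and 12.2% of those at 1 TPM or more), with a median of -1.15. Between SC-β and PH, 3 members were higher in PH and 17 lower, while 2.41% and 14.7% of all names and 3.97% and 26.2% of those at 1 TPM or more were. There the members' median of -0.59 lay beside a median of -0.53 over the names at 1 TPM or more.

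**Figure D3:**
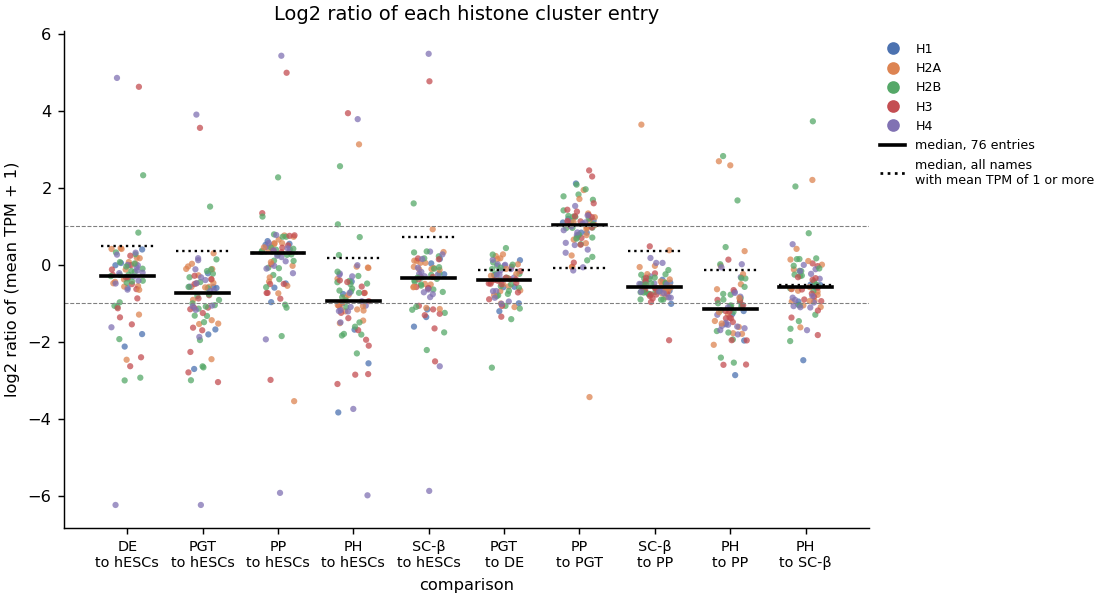
Log2 ratio of each member (points, coloured by class) in 10 comparisons of stages, with the median of the 76 members (solid bar), the median of all names with a mean of 1 TPM or more (dotted bar) and 2-fold limits (dashed lines). The solid bar lies above the dotted one in PP to PGT (1.04 against -0.08) and below it in PGT to hESCs (-0.72 against 0.36); the points near -6 are HIST1H4F.

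The clusters did not change alike. HIST1, on chromosome 6, held 89.5% to 94.4% of the summed members and set the pattern of the whole, at 24946, 24943, 17495, 35393, 14329.6 and 23896 TPM. Its genes fell into 4 blocks separated by more than 100000 bases. The 32 members of chr6:26017032-26285638 summed to 16617, 15261, 11794, 22712, 9336 and 15070.4 TPM. The 5 of chr6:27125897-27147562 summed to 2429, 2751, 1687, 3713, 1531 and 2405 TPM. The 16 of chr6:27807479-27893891 summed to 5899, 6930.5, 4013, 8968, 3463 and 6421 TPM. The log2 ratios of these 3 blocks to hESCs were -0.49, -0.53 and -0.56 in PGT, 0.45, 0.61 and 0.60 in PP, and -0.83, -0.67 and -0.77 in PH. They differed in sign in DE (-0.12, 0.18 and 0.23) and in SC-β (-0.14, -0.01 and 0.12). The block of chr6:27807479-27893891 holds HIST1H4L and HIST1H3I, described below, which were low in hESCs (16.7 and 12.9 TPM). They were at 513 and 343 TPM in DE and 793 and 379 TPM in SC-β. The block was not summed without them, so its difference in sign may rest on these genes alone. The remaining block, at chr6:25723397-25727345, holds the testis-type HIST1H2AA and HIST1H2BA and summed to at most 1.96 TPM.

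HIST2, on chromosome 1, summed to 2311, 1981, 1013, 1909, 1242 and 1282 TPM. Its log2 ratio to hESCs was -0.28 in PP and -0.85 in SC-β, where HIST1 was at 0.50 and -0.06. Much of this rested on HIST2H2BE, described below: without it, in a sum chosen after seeing the data, HIST2 was at 1681 TPM in hESCs and 1736 in PP (0.05) and at -0.55 in SC-β. HIST2H3D, the H3 gene of this cluster with the most RNA, was at 517 TPM in hESCs and 176, 107, 280.4, 71.3 and 164 TPM afterwards, and HIST2H2AB was also highest in hESCs at 352 TPM. HIST2H2AC followed the HIST1 genes, with 605, 682, 561, 829, 287 and 552 TPM. HIST2H2BF was at 111, 200.03, 74.5, 267, 133 and 142 TPM, with PP highest and PGT lowest. The pseudogene HIST2H2BC stayed between 0.616 and 2.27 TPM.

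HIST3 and HIST4 were highest in hESCs. The 4 HIST3 members, near chr1:228424845-228464594, summed to 157 TPM in hESCs and 20.4, 20.9, 83.9, 65.0 and 58.7 TPM from DE to SC-β, so the lowest stages were DE and PGT. HIST3H2A was at 67.0, 11.3, 11.4, 39.7, 33.5 and 30.3 TPM. HIST3H2BB was at 53.0, 5.73, 5.75, 25.4, 16.7 and 14.99 TPM. These 2 genes start back to back and had their lowest values at the same stages. The pseudogene HIST3H2BA was at 28.4, 2.85, 3.63, 18.7, 14.5 and 12.8 TPM, and HIST3H3, which encodes the testis-type H3t, was at 8.17 TPM in hESCs and below 1 TPM elsewhere. HIST4H4, a single gene on chromosome 12 (chr12:14767999-14771131), was at 446 TPM in hESCs and then 144, 121, 116, 32.3 and 70.9 TPM. It is the only cluster with no higher value in PP than in PGT.

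**Figure D4:**
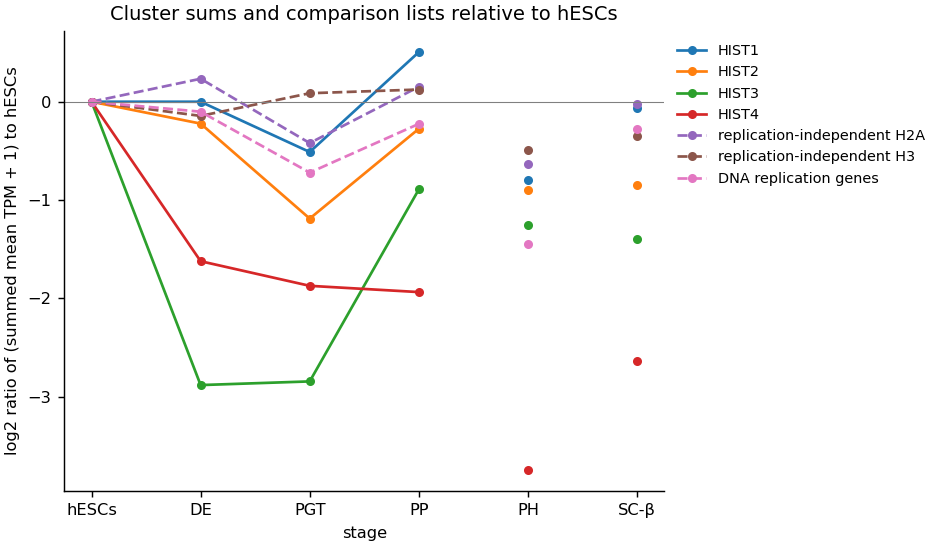
Log2 ratio of (summed mean TPM + 1) to hESCs for the HIST1, HIST2, HIST3 and HIST4 clusters (solid) and, for comparison, for listed replication-independent H2A and H3 genes and DNA replication genes (dashed); lines join hESCs to PP, and PH and SC-β are points. HIST1 is above 0 only in PP (0.50), and HIST4 is at -3.75 in PH.

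A few members stood apart at a single stage, and 7 of them were picked out after their values were seen. HIST1H4F (chr6:26240393-26240793) was at 74.7 TPM in hESCs, listed at 0 in DE and PGT, at 0.244 in PP, 0.190 in PH and 0.288 in SC-β, the largest difference of any member. HIST1H4L and HIST1H3I, neighbours on the minus strand (chr6:27873148-27873534 and chr6:27871845-27872346), showed the opposite. HIST1H4L was at 16.7, 513, 265, 766, 244 and 793 TPM. HIST1H3I was at 12.9, 343, 163, 442, 213 and 379 TPM. HIST1H4B, an H4 member of comparable mean, was not low in hESCs, being at 516, 388, 392, 669.6, 222 and 439 TPM. HIST1H2BF was lowest in hESCs too, at 69.1 TPM against 351, 199, 338, 144 and 211 TPM.

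HIST1H2AM was at 554, 426, 515, 46.6, 307 and 595 TPM, so its low value was in PP. HIST1H3J, on the same strand, was at 513, 605, 237, 1304, 215 and 334 TPM, with its high value in PP. The annotated span of HIST1H3J (chr6:27890315-27893106) overlaps that of HIST1H2AM (chr6:27892699-27893185), so reads in the shared stretch could be given to either, and their separate levels are uncertain. Their sum, 1067, 1031, 752, 1350.3, 522 and 929 TPM, had the order of the summed members.

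HIST1H2BB and HIST1H2AC were high in PH alone. HIST1H2BB was at 9.48, 1.75, 1.70, 7.73, 61.0 and 3.67 TPM. HIST1H2AC was at 7.85, 8.30, 9.90, 11.9, 76.5 and 15.8 TPM. HIST2H2BE, whose annotated transcript runs to 2224 bases against a median of 488 for the protein-coding members, was at 630.2, 645, 100.4, 174, 557 and 135 TPM. Its log2 ratio of PGT to DE was -2.67, and in PH its level was near that in hESCs. Without the 7 members named above (HIST1H4F, HIST1H4L, HIST1H3I, HIST1H2BF, HIST1H2AM, HIST1H2BB and HIST1H2AC) each of the 10 ratios of the summed members stayed on its side of 2-fold.

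**Figure D5:**
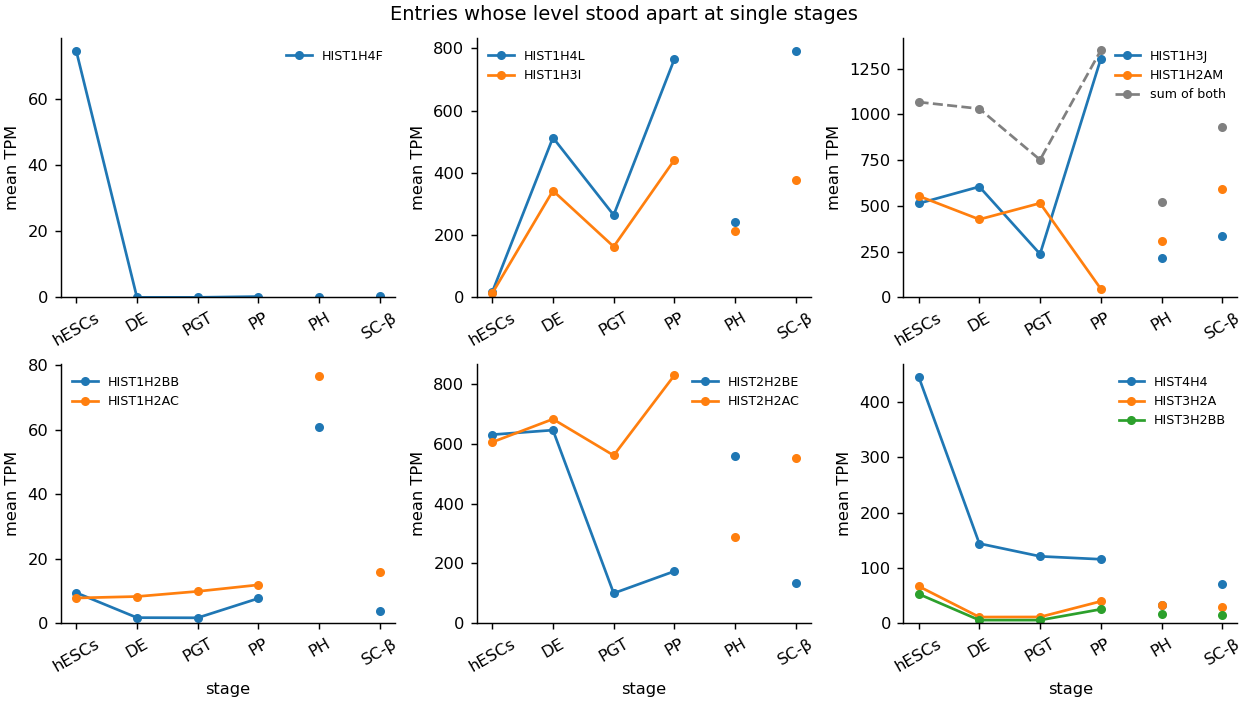
Mean TPM (axes from 0) at each stage of the members whose level stood apart at single stages, with HIST2H2AC and the HIST3 and HIST4 genes beside them; lines join hESCs to PP, and PH and SC-β are points. HIST1H4F is near 0 after hESCs, and HIST1H3J and HIST1H2AM part in PP (1304 and 46.6 TPM) while their sum is 1350.3 TPM.

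H2A and H2B genes often start back to back. 12 pairs, each 1 H2A with 1 H2B gene on opposite strands, had starts 194 to 251 bases apart. Levels within a pair could be alike or far apart. HIST1H2BK and HIST1H2AH, 251 bases apart, were at 836 and 653 TPM in hESCs and at 611 and 297 TPM in PH, whereas HIST1H2BC was at 379, 459, 303, 629.6, 107 and 426 TPM while HIST1H2AC, 246 bases away, stayed at or below 15.8 TPM outside PH. HIST1H2BN was at 57.6 to 147 TPM, with its partner HIST1H2AK at most at 0.109 TPM. HIST2H2BE and HIST2H2AC, 236 bases apart, were both lower in PGT than in DE but by different amounts, with log2 ratios of -2.67 and -0.28.

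The 5 members listed as making polyadenylated RNA besides the stem-loop form (HIST1H1C, HIST1H2AC, HIST1H2BD, HIST1H2BK and HIST2H2BE) summed to 3196, 3448, 2126, 4244, 2415 and 2853 TPM. The list need not be complete, and whether other members also make such RNA was not checked. From PP to PH 2 of them were 2-fold or more higher and 3 lower, next to 8.81% and 12.2% of the names at 1 TPM or more, and their summed log2 ratio to hESCs in PH was -0.40, against -0.83 for all members. The 4 testis-type members (HIST1H1T, HIST1H2AA, HIST1H2BA and HIST3H3) summed to 18.3 TPM in hESCs and to at most 5.47 TPM at any later stage, HIST1H1T being at 8.17, 1.10, 0.404, 5.08, 0.555 and 2.01 TPM. The 6 near-identical duplicated HIST2 members (HIST2H2AA3 with HIST2H2AA4, HIST2H3A with HIST2H3C, and HIST2H4A with HIST2H4B) summed to 69.9, 36.0, 27.7, 55.5, 25.2 and 33.6 TPM. Reads from such copies cannot be assigned to either, so these levels are uncertain.

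Histone genes outside the clusters had courses of their own. H3F3A, for the variant H3.3, was at 453, 376, 495, 529, 280.3 and 388 TPM. H3F3B, for the same protein, was at 268, 289.9, 290.3, 269.5, 240.2 and 182 TPM. The H3 members therefore summed to 6.29, 6.11, 3.62, 8.82, 5.00 and 7.03 times H3F3A plus H3F3B. H2AFZ was highest in hESCs, at 411 TPM against 124 to 257 TPM at the other stages. The macroH2A genes H2AFY and H2AFY2 were lowest in hESCs, at 36.2 and 11.9 TPM, and H2AFY2 was at 122 to 234 TPM later. The linker histone genes H1F0 and H1FX summed to 125, 139.9, 104, 168, 256 and 125 TPM, so the ratio of H1 members to them was 8.32 in PH and 24.5 to 32.5 at the other stages. In PH, 1 of these 2 genes was 2-fold or more above hESCs, where 3 of the 6 H1 members were lower and none higher. Of the names at 1 TPM or more, 23.4% were higher and 17.1% lower in PH. The 7 germline histone variants listed were nearly silent, summing to at most 0.346 TPM.

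Genes that make and handle histone mRNA and protein were read from fixed lists. Of 17 genes of histone mRNA 3′ end formation and decay, 16 were found; against hESCs, none was 2-fold or more higher in PP and 1 lower, and in PH none was higher and 3 lower. Of the names at 1 TPM or more, 17.2% were higher and 7.75% lower in PP, and 23.4% and 17.1% in PH, so the list's lower counts lie near those shares. SLBP was at 45.2, 35.3, 44.04, 37.9, 17.1 and 28.9 TPM. LSM10, a subunit of the U7 particle that cuts the pre-mRNA, was at 31.5, 19.5, 11.7, 13.97, 6.25 and 13.2 TPM. Of 7 listed regulators of histone gene transcription, 2 were higher and 1 lower in PH than in hESCs, also near the shares of the names at 1 TPM or more. NPAT, the coactivator of histone genes, was at 14.2, 21.6, 18.5, 15.5, 14.85 and 20.7 TPM. Cyclin E1 (CCNE1), which with CDK2 phosphorylates it, was at 40.8, 45.1, 29.5, 18.9, 2.25 and 15.1 TPM. Of 13 histone chaperones, none was higher and 6 were lower in PH, next to the same 17.1% of names lower, and none passed either way from PGT to PP, where 5.68% of names were higher and 6.43% lower.

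Genes of S phase and mitosis had their 2 lowest sums in PGT and PH, as the members did. The 28 DNA replication genes, among them PCNA and the MCM helicase subunits, summed to 2049, 1909.7, 1242, 1753, 749 and 1685 TPM. In PH 18 of them were 2-fold or more below hESCs and none above, next to 17.1% and 23.4% of the names at 1 TPM or more. From PGT to PP 1 was higher and none lower, next to 5.68% and 6.43% of names, the sum going up by 0.50 on the log2 scale against 1.01 for the members. The members summed to 13.6, 14.2, 15.01, 21.4, 20.9 and 15.02 times the DNA replication genes, so the ratio was highest in PP and PH. Of the 12 mitosis genes, 9 were 2-fold or more higher in PP than in PGT (5.68% of names), and in PH 9 were below hESCs (17.1% of names).

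Of 9745 other names with a mean of 10 TPM or more, 49 had a Pearson correlation above 0.9 with the summed members over the 6 stages. The 5 highest were UBE2T (0.985), RNF19B (0.977), TMEM107 (0.971), NIFK (0.970) and C5orf30 (0.964). UBE2T, a ubiquitin-conjugating enzyme of DNA crosslink repair, was at 38.0, 41.7, 25.3, 50.8, 19.3 and 35.6 TPM. These are the highest of many correlations over 6 points that share 1 total per stage, and are given as likeness only.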

How the data were processed

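RNA was measured in 12 of the 148 samples of the series, 2 per stage; all other assays were not used here. The authors isolated total RNA, removed ribosomal RNA and primed with random hexamers (the labels also name a stranded mRNA kit, so poly(A) selection is unclear), aligned reads with HISAT2 2.2.0 to hg38, and deposited TPM per gene from StringTie 2.1.6 as the mean of 2 libraries per stage. The annotation is not given in the sources used here. The table has 50451 entries, and entries of the same name were summed to 49085 names. No counts or errors were used, so no test was run. The study states a minimum number of read pairs per library, but the reads behind a value are not in the table. TPM corrects for length, and each stage sums to the same total.

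Log2 ratios used a pseudocount of 1 TPM and a 2-fold limit, computed with Python 3.11.15, numpy 2.4.6 and pandas 2.3.3, and the steps were tested on simulated data. Members were matched by older symbol to RefSeq and GENCODE v44; all 76 matched. Alternatives were a pseudocount of 0.1 TPM, 4-fold, median-ratio rescaling, totals without the 100 most abundant genes, the highest entry of a repeated name, and sums without some members. Named members were the 4 with the highest mean per class, the 3 with the largest ratio each way per comparison, all HIST3 and HIST4 members and the fixed lists, and those that stood apart. The members and lists were chosen with earlier results of these data known.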

Additional observations from a re-analysis of the deposited data

How the results depend on the processing

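Of 701 values recomputed for 144 results, 645 stayed (a ratio in direction and side of the limit, a count within 1.5 times), and no called value reversed. For each of the 144 results, 1 value came from taking the highest entry of a repeated name, and all of these stayed. That setting could not move a member, because no member had several entries. PP had the highest member sum under every scaling. The lowest was PH as deposited, but PGT after median-ratio rescaling (17862 against 18632 TPM) and without the 100 most abundant genes (39705 against 42284 TPM); the cause was not tested. Median-ratio rescaling shifts log2 ratios to hESCs by -0.48, -0.34, -0.25, -0.03 and -0.52 in DE, PGT, PP, PH and SC-β.

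At 4-fold in place of 2-fold, members lower against hESCs numbered 7 in DE, 9 in PGT, 3 in PP, 9 in PH and 4 in SC-β and members higher in PP 3; 1 was lower from DE to PGT, 4 higher from PGT to PP, 0 lower from PP to SC-β, 6 lower from PP to PH, and 1 lower in PH than in SC-β. With a pseudocount of 0.1 TPM, 2 were higher and 16 lower from DE to PGT, 2 lower from PGT to PP, 3 higher and 4 lower from PP to SC-β, and 5 higher in PH than in SC-β. After median-ratio rescaling, 32 were lower in SC-β than hESCs, 4 lower from DE to PGT, 17 lower from PP to SC-β, and 5 higher and 6 lower in PH than in SC-β. Without the 100 most abundant genes these were 23 lower in PH than hESCs, 4 lower from DE to PGT, 18 lower from PP to SC-β, and 5 higher and 7 lower in PH than in SC-β. Relative to the median of names at 1 TPM or more, chosen after seeing the data, 12 were lower in PP and 42 in SC-β than in hESCs, 4 from DE to PGT and 32 from PP to SC-β, and 5 were higher and 6 lower in PH than in SC-β. The share over all names was not computed under any of these settings, so these counts were not set against other genes.

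Under median-ratio rescaling the log2 ratios of PGT to hESCs were -1.01 for H1, -1.09 for H2B, -1.01 for H3 and -1.05 for the members' median, past 2-fold; that of HIST2 in SC-β was -1.37 and of HIST3 in PP -1.14. The H2A sum in DE was -0.41 under that rescaling and -0.10 without the 100 most abundant genes, where it was 0.08 as deposited; H4 in SC-β was -0.48 and -0.10, from 0.04; and the replication-independent genes were -0.43 and -0.12 in DE and, rescaled, -0.086 in PP. HIST3 in PH was -0.94 without the 100 most abundant genes. Without HIST2H2BE, chosen after seeing the data, HIST2 was at -0.88 in PGT (from -1.19), 0.046 in PP and -1.29 in PH (from -0.90). No paired analysis was possible because the table holds 1 mean per stage, and for the same reason no replicate could be left out.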

Other observations

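The 11 names ending in PS and a digit, which are histone pseudogenes in the same clusters, were left out of the members. Together they were at 9.24, 8.32, 9.39, 10.7, 13.4 and 10.9 TPM in hESCs, DE, PGT, PP, PH and SC-β, at most 0.0854% of the members' sum. Their highest stage was PH, where the members were lowest, and HIST1H1PS1 alone was at 6.52 TPM there against 1.47 to 4.36 TPM at the other stages.

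RNU7-1, the short RNA of the U7 particle that pairs with histone pre-mRNA, was listed at 0.87 TPM in hESCs, 0.45 in PH and near 0 elsewhere, and no level was read from it.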
